A study of Mus musculus with 96 samples.

Results

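Ddit4 encodes REDD1, a small stress-induced protein that restrains the nutrient-sensing kinase complex mTORC1 by acting through the TSC1-TSC2 complex. Its transcription is known to be raised by glucocorticoids, hypoxia, DNA damage and amino acid shortage, and in liver it is counted among the fasting-responsive genes. Open chromatin around such a gene marks its promoter and the distal elements where transcription factors can bind, and ATAC-seq reads it as the number of transposase cuts in a site.

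The 20 sites described here are the ATAC-seq peaks whose nearest annotated start site, in the deposited annotation, belongs to Ddit4. They were found by that name alone, at any distance, and comprise 11 of 46832 peaks listed for hepatocyte nuclei and 9 of 30170 listed for macrophage nuclei, 20 of 77002 in all. The gene itself was chosen with the fasted against fed differences of these same libraries known, so those differences are given as description. Calls by limma mark them, with no p-value per peak, and are not a test of the gene. Contact between a peak and the gene was not measured.

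Livers came from female HEP-INTACT and MAC-INTACT mice, whose tagged hepatocyte or macrophage nuclei were captured on beads, and every group carries such a tag. Food was withdrawn at ZT12, the onset of the dark active phase, and livers were taken 3, 8, 16 or 24 h later (ZT15, ZT20, ZT4 and ZT12), beside livers of ad libitum fed mice at each of those times. Each of the 16 groups held 4 mice, 64 mice in all, and each macrophage mouse was run in technical duplicate and joined into 1 value by the authors. The labels do not describe strain or age, and the feeding labels of macrophage mice end in lys, which they do not explain. P-values measure the spread between mice. Values are normalized reads per peak, and the 2 tables were normalized separately, so levels in hepatocyte and macrophage nuclei are set side by side without a test.

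Reads in peaks, estimated from the step between values, ran from 2458156 to 6098645 per hepatocyte mouse (median 4364781) and from 1729720 to 4637873 per macrophage mouse (median 3531871), whose duplicates are joined. A check of whole reads passed for 30 hepatocyte and 5 macrophage mice of 32 each. Among hepatocyte nuclei, 5 of 6 hepatocyte marker genes had a promoter peak and 0 of 8 macrophage markers did, with 1 peak each at Reln (stellate cells) and Sox9 (cholangiocytes). The Reln peak ran from 29.4 to 60.7 normalized reads over the fasted groups and from 19.3 to 52.4 over the fed groups, and the Sox9 peak from 41.3 to 72.9 over the fasted groups and from 29.2 to 54.0 over the fed groups. Among macrophage nuclei all 8 macrophage markers had promoter peaks and 0 of 6 hepatocyte markers did, with 1 peak each at Lyve1 (endothelium) and S100a8 (neutrophils). The summed macrophage promoter signal there ran from 725 to 823 normalized reads over the fasted groups and from 841 to 895 over the fed groups. The single Lyve1 and S100a8 peaks ran from 17.2 to 50.5 and from 22.3 to 49.5 in fasted groups, against 25.8 to 36.1 and 23.3 to 28.4 in fed groups, and the part of these 4 peaks in the results was not tested. In nuclei pooled from a liver, more nuclei with an open site and more cutting per nucleus cannot be told apart.

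All 20 peaks were 200 bp wide and lay on chromosome 10 of mm10, where Ddit4 runs on the minus strand from 59949675 to 59951770. Distances below are from the gene's start site to the middle of a peak, upstream meaning beyond the 5′ end. The hepatocyte table held 5 downstream peaks, at 8022, 30352, 30486, 30675 and 35440 bp, and 6 upstream ones, at 184, 753, 1391, 18120, 18478 and 21512 bp. The macrophage table held only upstream peaks, at 184, 13006, 13310, 15612, 18120, 18478, 22512, 22940 and 23146 bp. The 4 far downstream peaks lie within Gm40673, a long noncoding RNA gene of the RefSeq annotation, and the upstream peaks lie between Ddit4 and Anapc16, a subunit gene of the anaphase-promoting complex.

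The promoter is shown because a peak covers most of it in both tables. The 250 bases before the start site, from RefSeq on GRCm38.p6 (chr10:59951771-59952020, minus strand, 5′ to 3′), are printed with capitals on ACGTG, the core letters of the hypoxia response element.

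Ddit4 promoter: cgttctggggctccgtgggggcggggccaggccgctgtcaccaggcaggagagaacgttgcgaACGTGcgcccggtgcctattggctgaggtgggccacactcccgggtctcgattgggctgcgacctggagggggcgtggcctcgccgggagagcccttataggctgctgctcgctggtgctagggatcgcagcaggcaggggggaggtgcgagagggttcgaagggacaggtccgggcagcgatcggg

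Of these bases 167 fall in the promoter peak, and 70.0% are G or C, against a median of 52.4% over 32851 mouse promoters. The ACGTG match begins 187 bases before the start site, and 16.6% of all promoters of this length hold one on either strand. The palindromic glucocorticoid receptor motif (in 0.387% of promoters), TGTTTAC (FOXO, 3.17%), TGATGNAAT (ATF4, 0.816%) and TGACGTCA (CREB, 1.55%) had no match on either strand of this window. Nor did the shorter CREB core TGACG (17.8%), the C/EBP letters TTGCGNAA or TTNNGCAA (9.56%), TGANTCA (AP-1, 6.75%) or CACGTG (E-box, 6.02%). The same held for GAGGAAG (ETS, 10.6%), AGGTCA (RORE, 14.0%) and the PPAR direct repeat of AGGTCA (0.0335%). CACGTG holds ACGTG, TGACGTCA holds TGACG, and the PPAR repeat holds AGGTCA. A match or its absence describes these letters only.

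Most distal Ddit4 peaks were far higher in fasted than in fed mice of both cell types at 3, 8 and 24 h, and much nearer to fed levels at 16 h. The promoter peak 184 bp upstream, one of the strongest in each table, differed little. In hepatocyte nuclei the largest difference at each time lay about 30 kb downstream. In macrophage nuclei it lay about 23 kb upstream at 3 and 8 h, and at the peak 13310 bp upstream at 16 and 24 h. A peak is called here where limma's adjusted p, over all tested peaks of the table, was under 0.05. All 20 peaks passed the filter of a mean of at least 10 normalized reads over all mice of a table. In fed mice alone the mean was under 10 at 30675 bp downstream (7.95) and 18478 bp upstream (4.77) in hepatocyte nuclei. It was also under 10 at 18478 bp (9.48) and 23146 bp upstream (9.85) in macrophage nuclei. These peaks passed the filter only through their fasted mice, so their calls are no support for a difference.

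**Figure D1:**
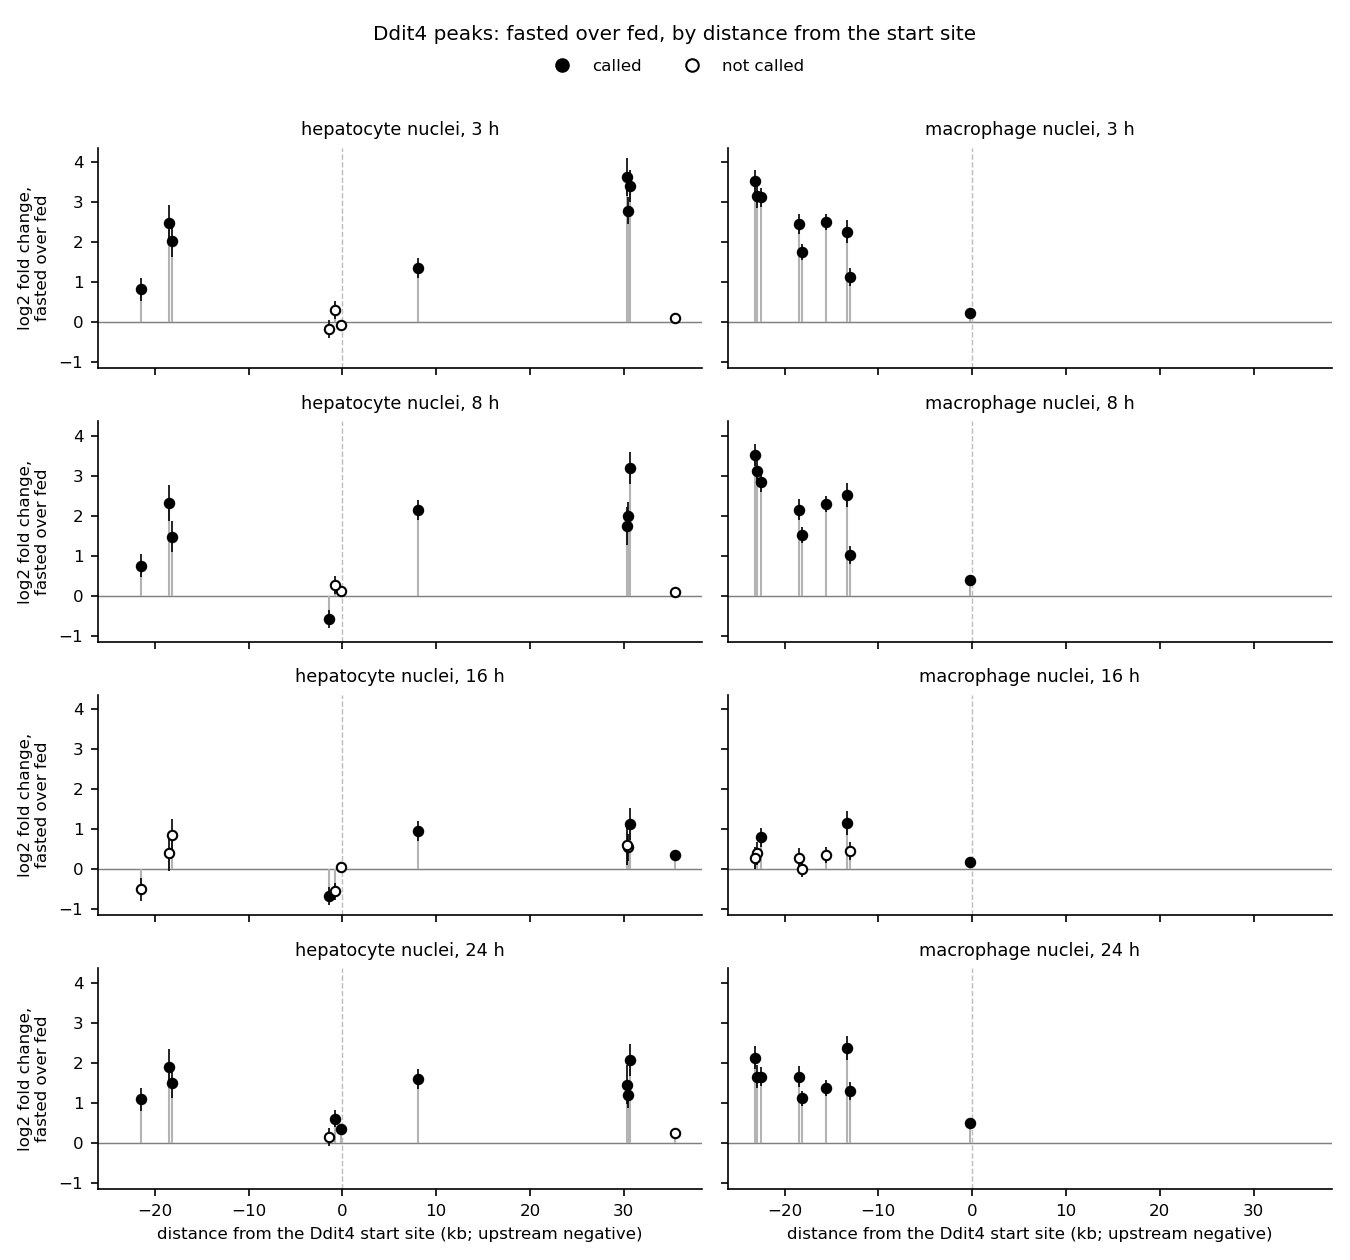
Log2 fold change of fasted over fed mice for each Ddit4 peak against its distance from the start site (kb, upstream negative), at 3, 8, 16 and 24 h in hepatocyte nuclei (left) and macrophage nuclei (right). Points are fitted values with standard errors, filled where called. In macrophage nuclei the distal points stand between 1.02 and 3.52 at 3, 8 and 24 h and between 0.00 and 1.16 at 16 h. In hepatocyte nuclei the points at 35440 bp downstream and 1391 bp upstream do not follow the other distal points, and in both panels the point 184 bp upstream stays within 0.50 of 0 throughout.

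In hepatocyte nuclei 7 of the 11 peaks were called higher in fasted mice at 3 h, where 11.3% of all peaks were. At 8 h 7 were called higher and 1 lower, where 20.3% and 13.7% of all peaks were. At 16 h 3 were called higher and 1 lower, against 19.0% and 12.8% of all peaks, and at 24 h 9 were called higher, against 25.3%. The DESeq2 count test called 5 at 24 h, with the share of all peaks it called not given here. All 4 fasted mice stood above all 4 fed mice at 7 peaks at 3 h (13.1% of all peaks), 5 at 8 h (18.2%), 3 at 16 h (14.2%) and 9 at 24 h (25.0%), and below them at 1 peak at 16 h (8.14%). The median log2 fold change of the 11 peaks was 1.36, 1.48, 0.42 and 1.20 at 3, 8, 16 and 24 h, beside -0.01, 0.08, 0.10 and 0.16 over all peaks. The gene was chosen on these contrasts, so nothing is read from the counts.

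In macrophage nuclei all 9 peaks were called higher in fasted mice at 3 h, where 1.68% of all peaks were, and at 8 h, where 1.63% were. At 16 h 3 were called higher, against 3.79% of all peaks, and at 24 h all 9, against 3.0%. The 4 fasted mice stood above the 4 fed mice at 9 peaks at 3 h (4.57% of all peaks), 9 at 8 h (3.47%), 2 at 16 h (3.31%) and 9 at 24 h (4.89%). Median log2 fold changes were 2.45, 2.30, 0.35 and 1.65, beside -0.00, -0.07, -0.10 and -0.06 over all peaks. In the authors' deposited table, an adjusted p under 0.05 was given for 7, 7, 5 and 9 hepatocyte peaks and for 9, 9, 2 and 9 macrophage peaks at the 4 times. The share of all peaks under that threshold there is not given here, so nothing is read from these counts.

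The scaling between libraries moved the whole-table medians. With quantile normalization the all-peak median log2 fold change was 0.04 in hepatocyte nuclei at 24 h, and with median centring it was 0.04 in macrophage nuclei at 8 and 16 h. At 8 h in macrophage nuclei 493 of 1990 called peaks were higher in fasted mice, against 1155 of 1738 with median centring and 900 of 1535 with quantile normalization. At 16 h the figures were 1144 of 6415, against 3779 of 6404 and 1876 of 4035, and at 24 h 905 of 3402, against 2269 of 3869 and 1260 of 2769. In hepatocyte nuclei at 24 h 11867 of 17182 calls were higher, against 7595 of 13752 and 5218 of 10990. At 8 h they were 9512 of 15937, against 6905 of 14885 and 7411 of 15356, and at 16 h 8916 of 14896, against 6598 of 13454 and 5406 of 11228. In the edgeR count test on hepatocyte reads 6118 of 12935 calls were higher at 8 h, 5917 of 12813 at 16 h and 3377 of 8878 at 24 h.

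The 3 downstream hepatocyte peaks near 30 kb form 1 open region, overlapping their neighbours by 11 and 66 bp, and so share reads. The lead peak, 30352 bp downstream (chr10:59921318-59921518), stood in the lowest 0.884% of the table by its fed mean. At 3 h it held 182, 52.5, 156 and 91.6 normalized reads in fasted mice, against 3.85, 7.38, 10.3 and 7.25 in fed mice. At 8 h it held 9.25, 66.4, 12.6 and 198 in fasted mice, against 8.26, 7.43, 9.75 and 13.7 in fed mice. All fasted mice stood apart at 3 h, whereas at 8 h the second and the fourth stood far above and the first and the third lay among the fed mice. After 16 h it held 18.1, 16.6, 10.4 and 18.3 in fasted mice, against 9.79, 8.37, 8.84 and 11.7 in fed mice. At 24 h it held 145, 107, 69.4 and 64.7 in fasted mice, against 28.7, 46.1, 27.2 and 28.9 in fed mice. The groups overlapped at 16 h and separated again at 24 h, when the fed mice were themselves higher than at the other times. The log2 fold changes were 3.63 ± 0.48, 1.75 ± 0.48, 0.60 ± 0.48 and 1.46 ± 0.48 (SE, 4 mice a group), called at 3, 8 and 24 h. Without the fourth fasted mouse at 8 h the value was 0.96 and not called, and without the first fasted mouse at 24 h it was 1.24 and not called. Neither count test called the 24 h value, at 1.38 in edgeR and 1.36 in DESeq2.

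The adjoining peak at 30675 bp, in the lowest 0.0918% of the table among fed mice, was the one of the 3 that was called higher at every time, with the mice apart. It held 135, 28, 129 and 71.1 normalized reads in fasted mice at 3 h, against 4.49, 4.43, 6.17 and 7.25 in fed mice. At 8 h fasted mice had 24.9, 72, 29.3 and 179, against 2.75, 4.64, 4.88 and 5.36 in fed mice. Here too the second and the fourth fasted mice at 8 h were the high ones, but all 4 stood above the fed range. By 16 h it held 14.7, 17.7, 31.3 and 17.5 in fasted mice, against 10.5, 8.37, 7.86 and 5.31 in fed mice. At 24 h it held 105, 73.9, 49.3 and 44.2 in fasted mice, against 14.1, 15.1, 12.9 and 13.1 in fed mice. Log2 fold changes were 3.40 ± 0.40, 3.20 ± 0.40, 1.13 ± 0.40 and 2.07 ± 0.40, all called, and the 16 h call was lost at 0.92 without the third fasted mouse, at 0.98 without the fourth fed mouse and in both count tests. The middle peak, 30486 bp downstream, averaged 139 ± 46.9, 111 ± 98.4, 42.9 ± 4.93 and 125 ± 32 in fasted mice at 3, 8, 16 and 24 h, against 18.3 ± 7.27, 19.9 ± 6.58, 28.8 ± 4.93 and 52.9 ± 13.2 in fed mice (SD, n = 4, as for all means below). Its fasted and fed mice were apart at every time, and its log2 fold changes were 2.79, 2.0, 0.55 and 1.20 (SE 0.34 each), the 16 h one not called.

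The peak 8022 bp downstream (chr10:59943648-59943848), beyond the 3′ end of the gene, had its highest fasted mean at 8 h. The peaks of the 30 kb region had theirs at 3 h. The step from 3 to 8 h of fasting at 8022 bp was 0.49 ± 0.25 and not called. Without the second fasted mouse at 3 h it was 0.17. The peak at 8022 bp held 156, 51, 132 and 99.5 normalized reads in fasted mice at 3 h, against 42.4, 33.9, 37.7 and 39.2 in fed mice. At 8 h fasted mice had 122, 172, 107 and 186, against 27.5, 32.5, 30.7 and 33.3 in fed mice. At 16 h fasted mice had 50.1, 58.2, 116 and 44.5, against 20.3, 37, 36.4 and 34 in fed mice. Fasted mice stood above fed mice at all of these times, and at 16 h the third fasted mouse was about as high as fasted mice at 3 h. At 24 h fasted mice had 138, 120, 81.1 and 92.5, against 37.9, 37.4, 24.5 and 35.9 in fed mice. Log2 fold changes were 1.36, 2.14, 0.96 and 1.60 (SE 0.25 each), called at all 4 times. The farthest peak, 35440 bp downstream and 4565 bp beyond the 30 kb region, differed little: group means ran from 92.7 to 106 in fasted mice and from 80.9 to 98.3 in fed mice. Its log2 fold changes were 0.11, 0.10, 0.37 and 0.24 (SE 0.12 each), called at 16 h alone, with overlapping mice, and not called at 0.28 without the third fasted mouse. With quantile normalization the 8 h value was -0.02.

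At the hepatocyte promoter the peak 184 bp upstream (chr10:59951854-59952054) was in the top percent of the table, with a fed mean at percentile 99.1. It averaged 238 ± 24.0, 277 ± 25.4, 289 ± 21.6 and 280 ± 14.5 normalized reads in fasted mice at 3, 8, 16 and 24 h, against 248 ± 14.4, 254 ± 27.4, 278 ± 4.30 and 220 ± 18.6 in fed mice. The small differences at 8 and 16 h changed sign with the processing, to -0.01 in DESeq2 and -0.12 with quantile normalization. Only at 24 h did the mice separate, at 289, 262, 276 and 294 in fasted mice, against 194, 225, 239 and 223 in fed mice. That log2 fold change of 0.35 ± 0.08 was called, but it was 0.07 and not called with quantile normalization, and 0.17 and 0.16 and not called in the edgeR and DESeq2 count tests.

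The 2 weak peaks just upstream followed other courses. The peak at 753 bp averaged 37.8, 29.8, 16.9 and 39.7 in fasted mice, against 29.7, 23.2, 25.5 and 25.4 in fed mice, and its log2 fold changes were 0.29, 0.27, -0.55 and 0.61 (SE 0.22 each). The last was called with the mice apart, yet not with median centring (0.53) or in the edgeR test (0.54). Its 16 h value was not called by limma in the main fit. It became -0.61 with median centring and -0.70 in both the edgeR and DESeq2 tests, and was then called lower. In that main fit the peak at 1391 bp was the one Ddit4 peak with lower calls in fasted mice. At 16 h it held 35.4, 34.3, 36.9 and 16.6 in fasted mice, against 55.2, 53.7, 39.3 and 46.8 in fed mice, a log2 fold change of -0.68 ± 0.22, with every fasted mouse below every fed mouse. Without the fourth fasted mouse it was -0.42 and not called. At 8 h its means were 43.0 ± 17.2 in fasted mice and 61.4 ± 4.41 in fed mice (-0.58, called, with overlapping mice, and not called in either count test).

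Farther upstream, hepatocyte nuclei held 2 peaks 158 bp apart that the macrophage table also lists. The one at 18120 bp (chr10:59969790-59969990) held 69.3, 19, 53.5 and 34 normalized reads in fasted mice at 3 h, against 8.98, 11.1, 6.17 and 7.25 in fed mice. At 8 h it held 12.8, 55.1, 12.6 and 79.3 in fasted mice, against 6.43, 10.2, 9.75 and 11.9 in fed mice. The fasted mice were above the fed mice at both times, and at 8 h the second and the fourth were again the high ones. At 16 h the means were 20.5 ± 12.5 in fasted mice and 9.26 ± 2.10 in fed mice, with overlap, and at 24 h they were 53.4 ± 12.9 and 17.2 ± 3.19, without overlap. Log2 fold changes were 2.03, 1.48, 0.87 and 1.51 (SE 0.39 each), the third not called. The peak at 18478 bp, in the lowest 0.0214% of the table among fed mice, averaged 29.2, 28.5, 8.83 and 32.4 in fasted mice, against 3.37, 2.79, 5.64 and 7.29 in fed mice. Log2 fold changes here were 2.48, 2.31, 0.42 and 1.90 (SE 0.45 each), called at 3, 8 and 24 h with the mice apart. The peak at 21512 bp, which the macrophage table does not list, showed smaller log2 fold changes of 0.82, 0.75, -0.50 and 1.09 (SE 0.29 each), with the mice apart at 3 and 24 h. Its 8 h call was lost in both count tests, and its 3 h call was lost without any 1 of 5 of the 8 mice.

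**Figure D2:**
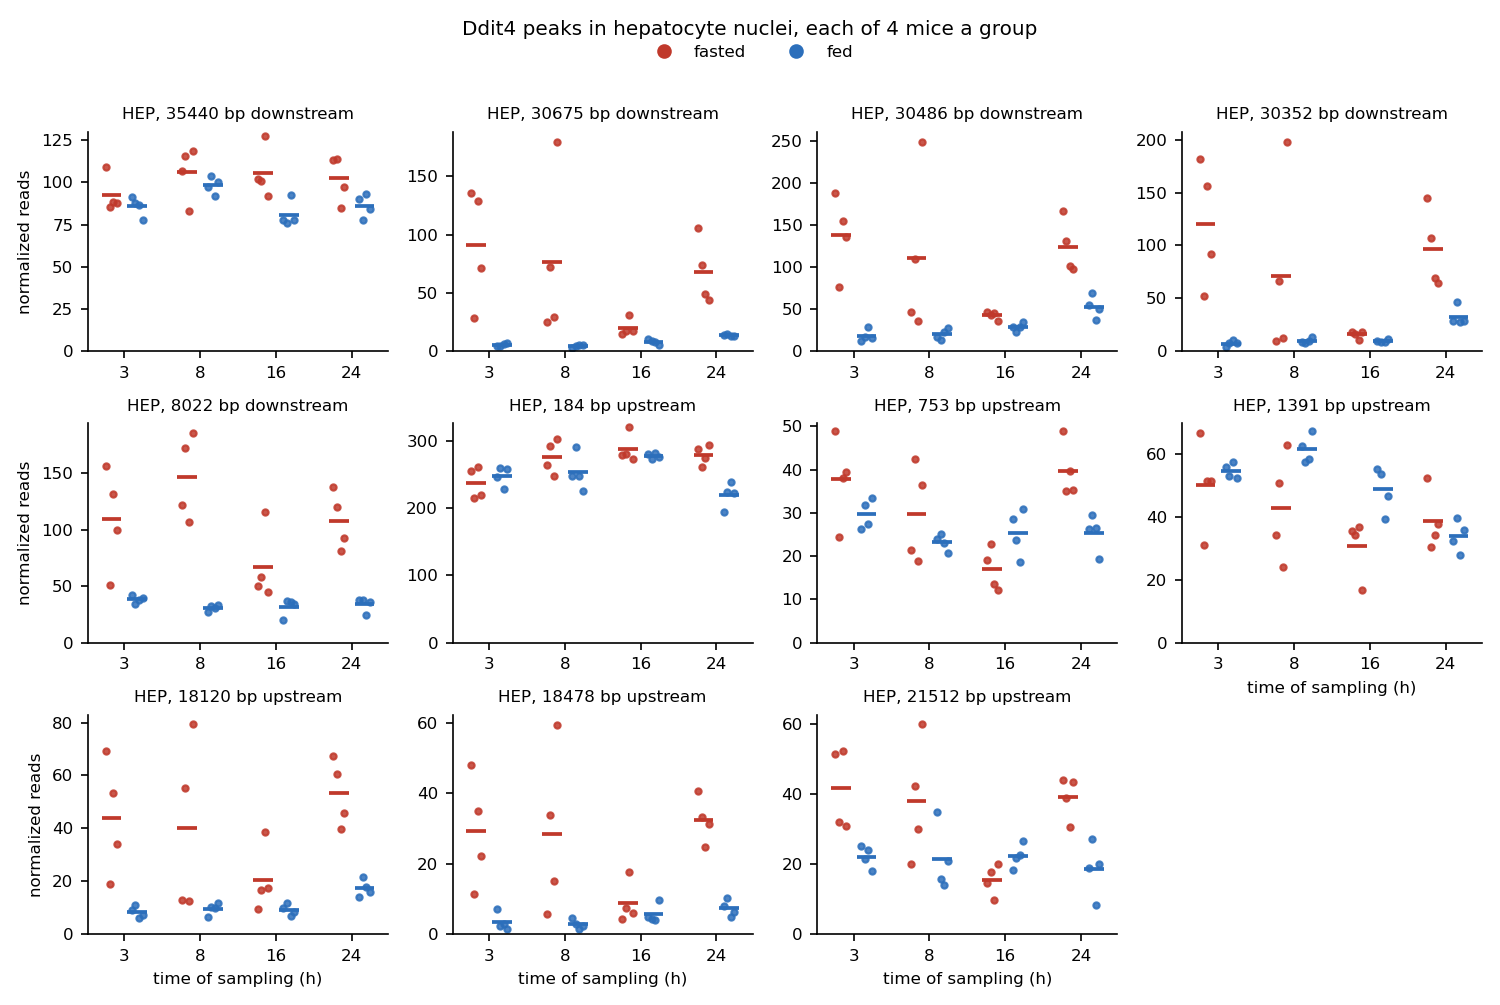
Normalized reads per mouse (y axes, 1 panel per peak) at the 11 Ddit4 peaks of hepatocyte nuclei at 3, 8, 16 and 24 h, fasted mice left of fed mice, with bars at group means. At the peak 30352 bp downstream fasted mice reach 182 at 3 h and 198 at 8 h, where 2 of the 4 remain near the fed level, while the peak 184 bp upstream shows group means between 220 and 289 throughout.

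In macrophage nuclei the 3 peaks between 22.5 and 23.1 kb upstream were the 3 highest-ranking of all 30170 peaks by fasted over fed log2 fold change at both 3 and 8 h. The outermost, 23146 bp upstream (chr10:59974816-59975016), was in the lowest 0.0497% of the table among fed mice. At 3 h it held 59.5, 61.9, 95.3 and 113 normalized reads in fasted mice, against 5.98, 4.78, 5.82 and 4.08 in fed mice. At 8 h it held 79.4, 89.2, 54.5 and 99.3 in fasted mice, against 7.50, 3.01, 5 and 5.40 in fed mice. Every fasted mouse was at least several times above every fed mouse at both times. After 16 h it held 3.09, 3.59, 8.99 and 7.43 in fasted mice, against 3.09, 2.93, 4.69 and 6.11 in fed mice. At 24 h it held 87.5, 85.5, 118 and 112 in fasted mice, against 10.8, 12.6, 30.2 and 45.5 in fed mice. The groups thus overlapped at 16 h and separated at 24 h, with the fed mice spread over a wide range. Log2 fold changes were 3.52 ± 0.28, 3.52 ± 0.28, 0.28 ± 0.28 and 2.13 ± 0.28, ranking 1 at 3 h, 1 at 8 h and 6 at 24 h. The gene was chosen with these contrasts known, and this peak passed the filter only through its fasted mice, so the ranks are description.

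The peak at 22512 bp (chr10:59974182-59974382) was the strongest of the 3. At 3 h it held 126, 116, 165 and 144 normalized reads in fasted mice, against 12.6, 14.3, 14.1 and 14.7 in fed mice. At 8 h it held 121, 146, 96.4 and 127 in fasted mice, against 15, 14.4, 20.8 and 11.7 in fed mice. These groups were tight and far apart. At 16 h it held 13.9, 23.7, 24.5 and 19.3 in fasted mice, against 13.1, 11, 10.2 and 8.55 in fed mice. At 24 h it held 130, 131, 150 and 151 in fasted mice, against 18.3, 27.8, 77.4 and 84.6 in fed mice. Fasted mice stayed above fed mice at all 4 times, narrowly at 16 h, and the log2 fold changes were 3.12, 2.84, 0.80 and 1.65 (SE 0.24 each), all called. Its neighbour at 22940 bp, 6 bp short of the outermost peak, averaged 66.9 ± 17.6, 65.7 ± 12.4, 10.4 ± 1.89 and 76.0 ± 7.79 in fasted mice, against 5.78 ± 2.15, 6.02 ± 3.08, 7.52 ± 2.36 and 28.6 ± 21.3 in fed mice. Log2 fold changes here were 3.15, 3.12, 0.40 and 1.66 (SE 0.29 each).

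Between the promoter and this region, macrophage nuclei held 5 further distal peaks. The peak at 15612 bp averaged 114 ± 27.4, 98.5 ± 14.1, 22.7 ± 4.01 and 120 ± 15.1 normalized reads in fasted mice, against 18.2 ± 3.31, 18.7 ± 4.98, 17.6 ± 4.99 and 47.9 ± 20.2 in fed mice. Its mice were apart at 3, 8 and 24 h and overlapped at 16 h. The peak at 13310 bp kept a difference at 16 h, with 34, 28.7, 23.7 and 31.2 in fasted mice, against 14.7, 12.5, 10.2 and 11 in fed mice. Its log2 fold changes were 2.26, 2.52, 1.16 and 2.37 (SE 0.30 each), called and without overlap at all 4 times. The peak at 13006 bp, 104 bp away, had the smallest differences of the distal macrophage peaks at 3 and 8 h. Its means were 44.0, 47.1, 26.3 and 57.0 in fasted mice, against 18.9, 22.3, 18.2 and 23.1 in fed mice, with log2 fold changes of 1.13, 1.02, 0.47 and 1.30 (SE 0.23 each). Its 16 h value became 0.61 with median centring and 0.66 with quantile normalization, and was then called.

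The macrophage promoter peak, at the same interval as in hepatocyte nuclei and at percentile 96.9 among fed mice, showed small differences with tight mice. At 3 h it held 340, 357, 350 and 376 normalized reads in fasted mice, against 311, 287, 304 and 312 in fed mice. At 8 h it held 402, 380, 379 and 382 in fasted mice, against 296, 299, 308 and 280 in fed mice. All fasted mice were above all fed mice at both times. At 24 h it held 430, 421, 407 and 394 in fasted mice, against 261, 271, 343 and 299 in fed mice, again apart. Log2 fold changes were 0.23, 0.38, 0.19 and 0.50 (SE 0.06 each), all called, with overlapping mice at 16 h. The 3 h call was lost with median centring at 0.21 and without any 1 of 7 of the 8 mice. The 16 h call was lost with quantile normalization at 0.16 and without any 1 of 3 of the 8 mice, and both were lost in a fit with no variance trend.

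**Figure D3:**
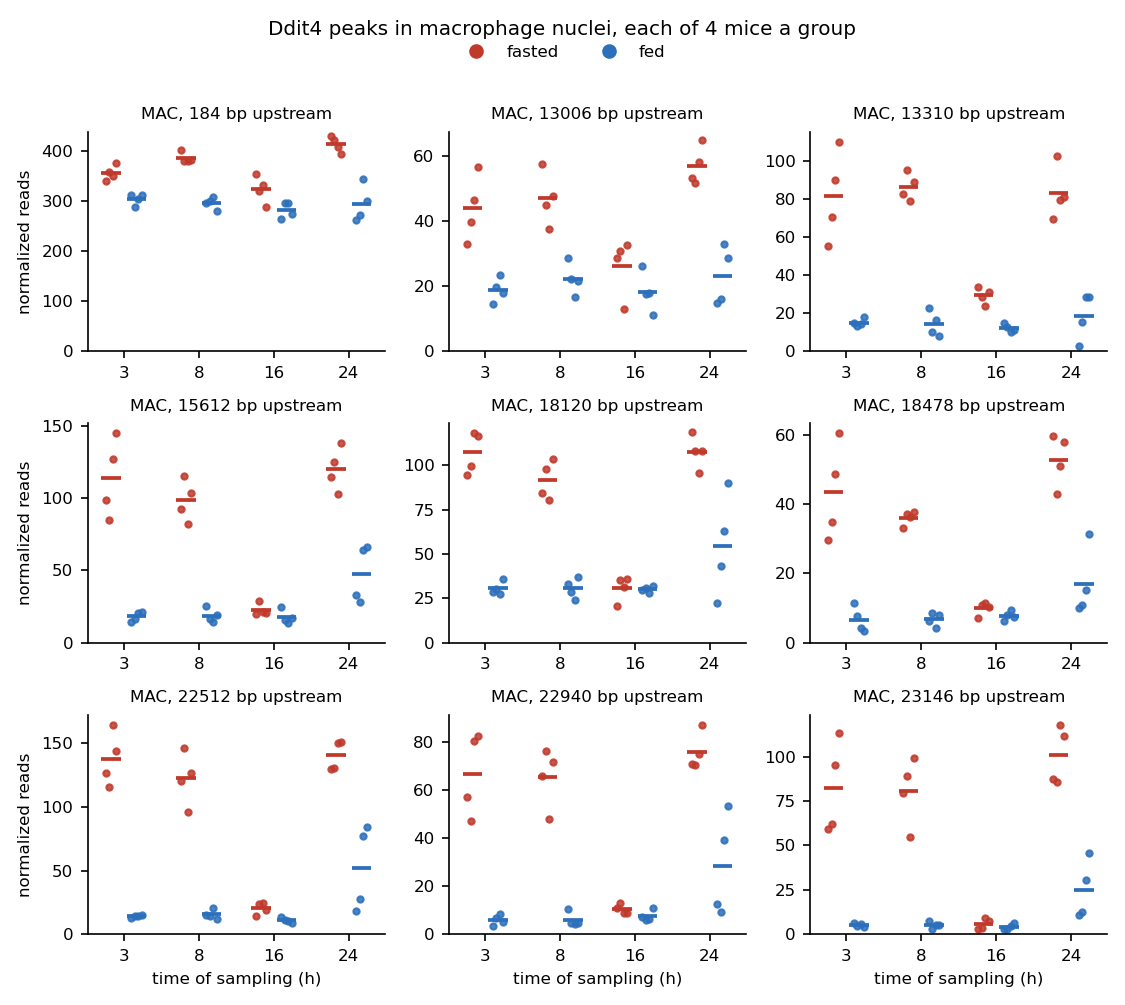
Normalized reads per mouse (y axes, 1 panel per peak) at the 9 Ddit4 peaks of macrophage nuclei at 3, 8, 16 and 24 h, fasted mice left of fed mice, with bars at group means. At the peak 23146 bp upstream fasted mice average 82.5, 80.6, 5.78 and 101 against 5.16, 5.23, 4.21 and 24.8 in fed mice, and at 24 h the fed mice are spread out.

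The tables share 3 intervals, at 184, 18120 and 18478 bp upstream, which are counted in each table and make up 27.3% of the hepatocyte and 33.3% of the macrophage Ddit4 peaks. Over all peaks 30.3% of the hepatocyte and 46.9% of the macrophage lists overlap the other list. The peak at 18120 bp was the one shared distal site with a sizeable fed level in macrophage nuclei. There it held 94.5, 99.7, 118 and 116 normalized reads in fasted mice at 3 h, against 28.6, 30.5, 27.5 and 35.9 in fed mice. At 16 h it held 20.9, 35.1, 31.1 and 35.6 in fasted macrophage nuclei, against 29.4, 30.8, 28.2 and 31.8 in fed ones, so that the groups coincided. Its log2 fold changes in macrophage nuclei were 1.74, 1.53, 0.00 and 1.11 (SE 0.20 each), beside 2.03, 1.48, 0.87 and 1.51 in hepatocyte nuclei. At 18478 bp they were 2.45, 2.15, 0.28 and 1.66 (SE 0.25 each) in macrophage nuclei, beside 2.48, 2.31, 0.42 and 1.90 in hepatocyte nuclei. At the promoter they were 0.23, 0.38, 0.19 and 0.50 in macrophage nuclei, beside -0.06, 0.13, 0.05 and 0.35 in hepatocyte nuclei. Whether these pairs of values differ was not tested.

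Peaks of 1 cell type were not uniformly more responsive than shared ones. In macrophage nuclei the 6 peaks listed there alone had median log2 fold changes of 2.81, 2.68, 0.43 and 1.65 at 3, 8, 16 and 24 h, beside 1.74, 1.53, 0.19 and 1.11 for the 3 shared peaks. In hepatocyte nuclei the 8 peaks listed there alone had medians of 1.09, 1.25, 0.46 and 1.14, beside 2.03, 1.48, 0.42 and 1.51 for the shared ones. By position, the 5 downstream hepatocyte peaks had medians of 2.79, 2.0, 0.60 and 1.46, beside 0.56, 0.51, -0.22 and 0.85 for the 6 upstream ones. The downstream peaks near 30 kb overlap and share reads, and the upstream ones mix near and far peaks. At 3 h those at 184, 753 and 1391 bp upstream had -0.06, 0.29 and -0.17. Those at 18120, 18478 and 21512 bp upstream had 2.03, 2.48 and 0.82. A peak missing from a list was not measured in that table, so its level there is not known.

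The levels of fasted mice at successive times were compared within each table. These steps are not the contrast on which the gene was chosen, but the fasted libraries are the same ones. Their p-values are therefore description too, not independent support. In both tables each step changes the length of the fast and the time of day together (ZT15, ZT20, ZT4 and ZT12), and the 2 cannot be told apart. In macrophage nuclei all 9 peaks fell at 16 against 8 h of fasting, where 6.77% of all peaks did, and all 9 rose at 24 against 16 h, where 5.98% did. The outermost peak, at 23146 bp, fell by 3.45 ± 0.28 on the log2 scale at 16 h (limma adjusted p = 4.19e-13) and rose by 3.79 ± 0.28 at 24 h (limma adjusted p = 6.62e-15). Its fasted means were 82.5, 80.6, 5.78 and 101 normalized reads over the 4 times. The peak at 18120 bp fell by 1.54 ± 0.20 (limma adjusted p = 2.39e-07) and then rose by 1.77 ± 0.20 (limma adjusted p = 2.17e-09). The promoter peak fell by 0.26 ± 0.06 (limma adjusted p = 0.00577) and then rose by 0.35 ± 0.06 (limma adjusted p = 6.66e-05), the fall being 0.19 and not called with median centring. At every one of the 9 peaks the 4 mice at 16 h lay below the 4 at 8 h and below the 4 at 24 h. Between 3 and 8 h of fasting limma called 0 of the 9 (0 also at an unadjusted p under 0.05), where 0.0232% of all peaks were called.

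In hepatocyte nuclei 6 of 11 peaks fell at 16 against 8 h of fasting, where 7.83% of all peaks did, and 8 rose at 24 against 16 h, where 7.45% did. The peak at 8022 bp fell by 1.17 ± 0.25 (limma adjusted p = 0.00138) and rose by 0.74 ± 0.25 (limma adjusted p = 0.0379), the rise being lost in the DESeq2 count test and without any 1 of 5 mice. The peak at 30675 bp fell by 1.43 ± 0.40 (limma adjusted p = 0.0114), not called at -0.89 without the fourth fasted mouse at 8 h, and rose by 1.63 ± 0.40 (limma adjusted p = 0.00395). The count of falling peaks was 3 without the second fasted mouse at 8 h and 2 without the fourth, the 2 high mice there. It was also 3 without the fourth fasted mouse at 16 h, and ran from 2 to 8 with 1 mouse left out. At 24 against 16 h the lead peak at 30352 bp rose by 2.41 ± 0.48 (limma adjusted p = 4.52e-04), with the mice apart. At 8 against 3 h it fell by 1.51 ± 0.48 (limma adjusted p = 0.0294), the single hepatocyte peak to do so, where 4.64% of all peaks fell. Neither count test called that step, at -0.85 in edgeR and -0.88 in DESeq2. Over all 4 times of fasting 9 of 11 hepatocyte peaks differed in limma's F test, against 52.1% of all peaks, and 9 of 9 macrophage peaks, against 19.2%.

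The same steps were compared among fed mice. These libraries also entered the contrasts on which the gene was chosen, so their p-values are likewise description. Limma called 0 of 11 hepatocyte and 0 of 9 macrophage peaks at 8 against 3 h (0.145% and 0.0431% of all peaks) and at 16 against 8 h (3.84% and 0.0795%). At an unadjusted p under 0.05 these counts were 0, 0, 1 and 0, and edgeR and DESeq2 on the hepatocyte reads also called 0 at both steps. At 24 against 16 h, that is ZT12 against ZT4, 4 macrophage peaks rose, where 0.948% of all peaks did. They were the peaks at 15612 bp (by 1.28 ± 0.20, limma adjusted p = 4.41e-05), 22512 bp (1.84 ± 0.24, limma adjusted p = 1.27e-06), 22940 bp (1.40 ± 0.29, limma adjusted p = 0.00317) and 23146 bp (1.93 ± 0.28, limma adjusted p = 9.95e-06). The call at 22940 bp was lost, at 1.02, without the fourth fed mouse at 24 h. The outermost peak averaged 24.8 ± 16.4 normalized reads in fed mice at 24 h, against 4.21 ± 1.50 at 16 h. In limma's F test over the 4 fed times 5 of 9 macrophage peaks differed, against 1.63% of all peaks.

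In hepatocyte nuclei of fed mice the lead peak at 30352 bp rose by 1.55 ± 0.48 at 24 against 16 h (limma adjusted p = 0.0230), where 6.18% of all peaks rose. Its mice were apart, at 28.7, 46.1, 27.2 and 28.9 normalized reads at 24 h, against 9.79, 8.37, 8.84 and 11.7 at 16 h. The promoter peak fell by 0.34 ± 0.08 (limma adjusted p = 0.00329), where 11.2% of all peaks fell, at 220 ± 18.6 at 24 h, against 278 ± 4.30 at 16 h. The rise at 30352 bp was lost without any 1 of 3 of the 8 mice. Neither step was called in the edgeR or DESeq2 count tests, which leave out 2 fed libraries, and the promoter fall was -0.13 and not called with quantile normalization. Over the 4 fed times 4 hepatocyte peaks differed in limma's F test, those at 30486 bp (adjusted p = 0.00466), 30352 bp (0.0118), 184 bp (0.0143) and 1391 bp (0.0299), against 21.1% of all peaks. The edgeR test called 0 of them, with 3 of 11 at an unadjusted p under 0.05.

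The fed macrophage mice at 24 h fell into pairs that follow the library numbers. Mice 1 and 2 of each group are in the first set of library numbers and mice 3 and 4 in the second. What the sets stand for is not stated in the labels. At the peak 23146 bp upstream the fed mice at 24 h had 10.8 and 12.6 normalized reads in the first set, and 30.2 and 45.5 in the second. At the peak 22512 bp upstream they had 18.3 and 27.8 in the first set, and 77.4 and 84.6 in the second. Fasted mice at 24 h differed less between the sets at this peak, with 130 and 131 in the first and 150 and 151 in the second. Within the first set the median log2 difference of fasted minus fed mice over the 9 peaks at 24 h was 2.08 (range 0.67 to 3.30), and within the second it was 0.88 (0.32 to 1.57). At 3 h the medians were 2.02 in the first set and 2.59 in the second, and at 8 h 2.23 and 2.36, with all 9 peaks higher in fasted mice in each. For fed mice at 24 minus 16 h the median was 0.46 in the first set, with 6 of 9 peaks above 0, and 1.28 in the second, with 9 of 9. Limma on the 2 mice a group of the first set called 1 peak at that step, and on those of the second set 8, an alternative chosen after seeing the data. The share of all peaks called in these fits is not given here, so the counts are not compared. The fall at 16 against 8 h of fasting had medians of -1.79 in the first set and -1.59 in the second, with 0 of 9 peaks above 0 in either.

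In hepatocyte nuclei mice 1 and 2 of each group are in the first set, mouse 3 in the second and mouse 4 in the third, and fasted mice at 24 h were higher in the first set at the downstream peaks. At 30352 bp the first set averaged 126 normalized reads in fasted mice at 24 h, against 69.4 in the second and 64.7 in the third. At 8022 bp these values were 129, 81.1 and 92.5, and at 30675 bp they were 89.6, 49.3 and 44.2. Fasted minus fed at 24 h was above 1 on the log2 scale in every set at these 3 peaks, from 1.11 to 2.44. The step of fasted mice at 24 minus 16 h at 8022 bp was 1.22 in the first set, -0.51 in the second and 1.02 in the third, the last 2 with 1 mouse a group.

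**Figure D4:**
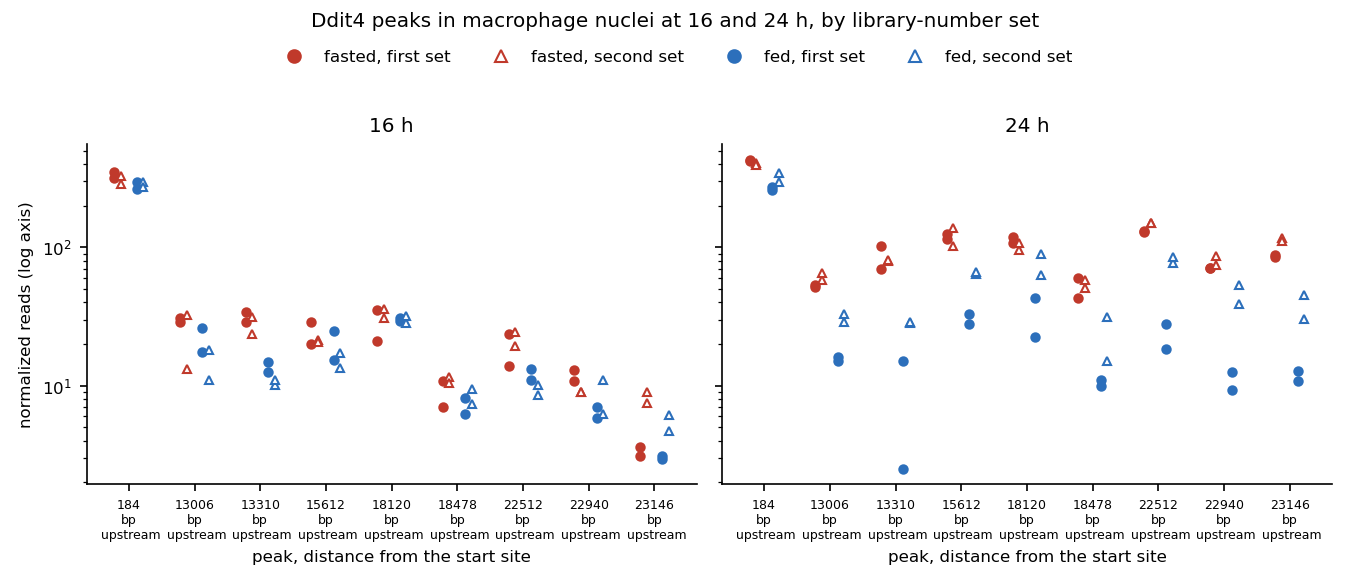
Normalized reads (log axis) at the 9 Ddit4 peaks of macrophage nuclei at 16 h (left) and 24 h (right), fasted mice left of fed mice at each peak, filled circles for the first set of library numbers and open triangles for the second. At 24 h the fed circles lie below the fed triangles at all 9 peaks, as at 23146 bp with 10.8 and 12.6 below 30.2 and 45.5, while fasted mice of both sets lie close together.

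Levels of the peaks went together over the 32 mice of a table, as a description that mixes fasting, time and library, with shared reads where peaks overlap. In macrophage nuclei Pearson's r of log2 values between any pair of the 9 peaks was 0.78 to 0.98. Of deviations from group means it was 0.15 to 0.84, lowest between the promoter and the peak at 18478 bp. In hepatocyte nuclei the peaks at 30675, 30486, 30352 and 8022 bp downstream and at 18120 and 18478 bp upstream were joined by r of 0.70 to 0.96. The peak at 1391 bp had r of -0.10 to -0.01 with these 6, although deviations from group means gave 0.61 to 0.73, and the promoter peak had 0.01 to 0.36. The macrophage promoter peak had r of 0.78 to 0.89 with the distal macrophage peaks. Of deviations from group means, the promoter peak had r of 0.24 to 0.62 with the same 6 peaks in hepatocyte nuclei. In macrophage nuclei that range was 0.15 to 0.53 with the distal peaks, so the 2 tables differ here in their group means.

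**Figure D5:**
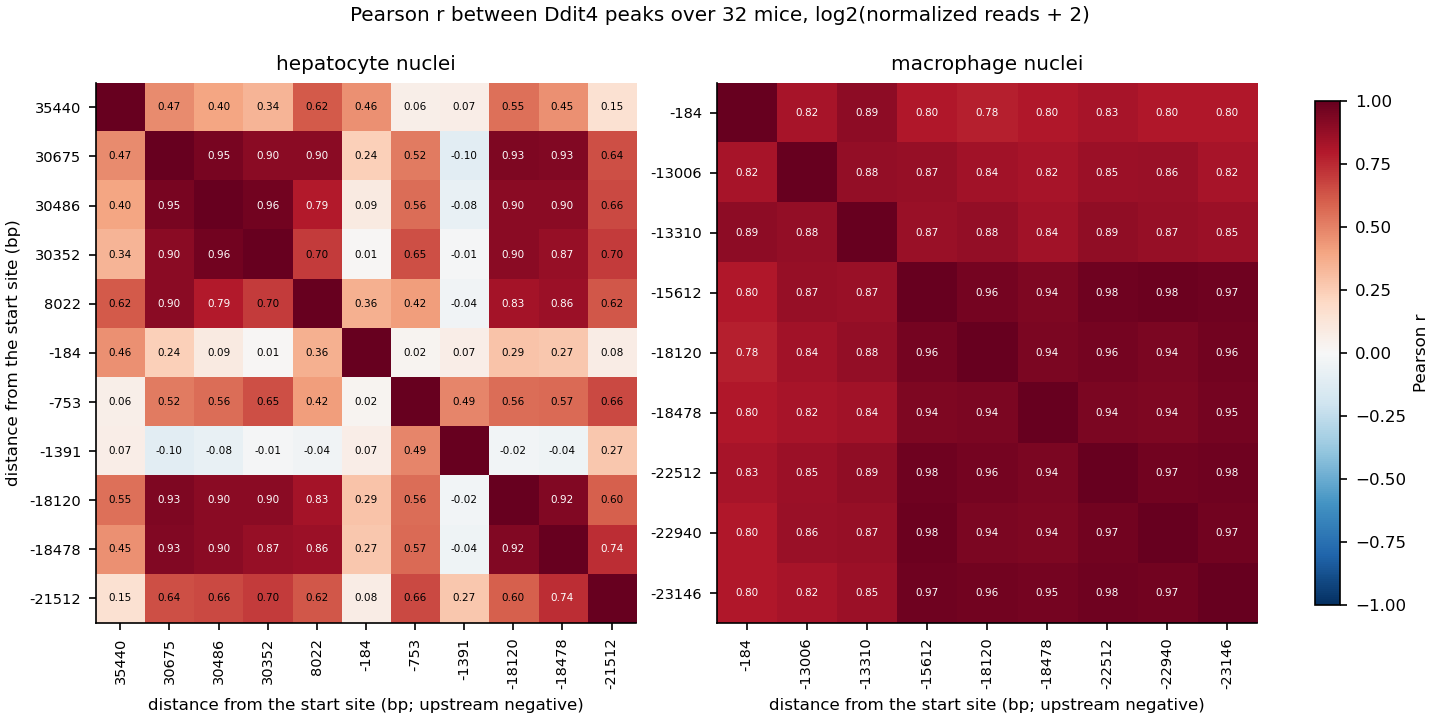
Pearson's r of log2 normalized reads over the 32 mice between Ddit4 peaks of hepatocyte nuclei (left) and macrophage nuclei (right), peaks in order of position. The macrophage peaks form 1 block of 0.78 to 0.98, whereas in hepatocyte nuclei the promoter peak and the peak at 1391 bp stand apart from the distal block.

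Elsewhere in the genome, the peaks most like the lead hepatocyte peak over the 32 mice, 1 per gene and none within 500 kb, had r of 0.93 to 0.95. They included peaks named for Gm12724, Capn9 (a calpain protease), Ppargc1a (a coactivator of mitochondrial and gluconeogenic genes), Gm15326, Zbtb16 (a zinc finger repressor), Ptpn1 (a phosphatase of the insulin receptor), Cat (catalase), Lrg1 (a secreted glycoprotein) and B3galnt1 (a glycosyltransferase). The Ppargc1a peak, 16708 bp downstream of that gene's start, had log2 fold changes of 2.86, 1.68, 1.18 and 1.62 at 3, 8, 16 and 24 h, beside 3.63, 1.75, 0.60 and 1.46 at the Ddit4 peak. For the lead macrophage peak the most alike had r of 0.94 to 0.98 and included peaks named for Hif3a (a hypoxia-inducible factor subunit), Armc12, 4930481A15Rik, Ccnd3 (cyclin D3), 4933431G14Rik, Pik3r1 (a regulatory subunit of PI3 kinase), Cxcl13 (a B cell chemokine), Epc2 and Ninj2. The Hif3a peak, 1651 bp upstream of that gene's start, had 2.23, 1.81, 0.18 and 1.16, beside 3.52, 3.52, 0.28 and 2.13 at the Ddit4 peak. These peaks were ranked over the libraries on which the gene was chosen.

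Of the nearest peaks named for other genes, 3 of 4 were called higher in fasted mice at more than 1 time. At a single time 11.3% to 25.3% of all hepatocyte and 1.63% to 3.79% of all macrophage peaks were called higher. The share called at more than 1 time is not given here, so nothing is read from that count. In hepatocyte nuclei a peak named for Dnajb12, a chaperone gene, lies 462 bp beyond the farthest downstream Ddit4 peak. It averaged 88.5 ± 44.0, 94 ± 57.3, 34.0 ± 24.4 and 53.8 ± 17.3 normalized reads in fasted mice, against 35.1 ± 5.42, 30.8 ± 11.1, 21.6 ± 6.73 and 25.2 ± 7.99 in fed mice. Its log2 fold changes were 1.16, 1.46, 0.46 and 1.03, larger than those of the Ddit4 peak beside it. In macrophage nuclei a peak named for Ascc1, a gene of transcription coactivation and DNA repair, lies 5911 bp beyond the outermost Ddit4 peak. It averaged 142 ± 31.4, 130 ± 4.75, 42.1 ± 9.19 and 142 ± 17.5 in fasted mice, against 50.0 ± 10.7, 45.2 ± 8.70, 43.4 ± 7.39 and 75.5 ± 23.8 in fed mice. Its log2 fold changes were 1.47, 1.50, -0.05 and 0.94, with the groups coinciding at 16 h. In hepatocyte nuclei the nearest Ascc1 peak, at another position 4085 bp beyond, had 0.33, 0.63, 0.76 and 1.19. The nearest macrophage peak on the other side is the Dnajb12 promoter, 71850 bp away, with 0.06, 0.15, -0.09 and 0.20, not called at any time.

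Peaks of other genes of the mTORC1 pathway were counted over a list of 35 genes, chosen with earlier results known, of which 32 had peaks in each table. In hepatocyte nuclei its 111 peaks held 19, 21, 14 and 32 called higher in fasted mice at 3, 8, 16 and 24 h and 7, 15, 16 and 13 called lower. The lower calls are 6.31%, 13.5%, 14.4% and 11.7% of them, beside 10.3%, 13.7%, 12.8% and 11.4% of all peaks. The higher calls are 17.1%, 18.9%, 12.6% and 28.8% of them, beside 11.3%, 20.3%, 19.0% and 25.3% of all peaks, with median log2 fold changes of 0.02, 0.11, 0.10 and 0.18. The largest higher call at 3 h was at Eif4ebp1, whose product holds back translation until mTORC1 phosphorylates it, at 30.0 ± 7.28 in fasted mice and 10.3 ± 3.62 in fed mice (1.41). At 16 h it was at Sesn2, a sestrin that restrains mTORC1 when leucine is scarce, at 112 ± 43.7 in fasted mice and 45.6 ± 7.85 in fed mice (1.21). The largest lower calls were at Sesn3, another sestrin (-1.31 at 3 h), and Fnip2, a partner of folliculin (-1.73 at 8 h and -2.07 at 16 h).

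In macrophage nuclei the 84 peaks of that list held 1, 0, 5 and 5 called higher and 0, 2, 11 and 2 called lower. The lower calls are 0%, 2.38%, 13.1% and 2.38% of them, beside 0.139%, 4.96%, 17.5% and 8.28% of all peaks. The higher calls are 1.19%, 0%, 5.95% and 5.95%, beside 1.68%, 1.63%, 3.79% and 3.0% of all peaks. The largest were at Tfeb, a regulator of lysosomal genes (0.92 at 16 h, with 49.2 ± 12.8 in fasted mice and 24.5 ± 2.94 in fed mice), and at Deptor, an mTOR-binding inhibitor (-1.13 at 16 h). A list of 10 transcription factors known to act on Ddit4 or in fasting liver had 93 hepatocyte peaks, 11, 16, 16 and 22 called higher and 13, 13, 17 and 11 called lower. These are 11.8%, 17.2%, 17.2% and 23.7% higher, beside 11.3%, 20.3%, 19.0% and 25.3% of all peaks, and 14.0%, 14.0%, 18.3% and 11.8% lower, beside 10.3%, 13.7%, 12.8% and 11.4%. A peak 2411 bp downstream of the start of Cebpd, an acute-phase factor, led it at all 4 times, with log2 fold changes of 2.04, 2.52, 1.56 and 1.61. The largest lower calls were at Atf4, the amino acid response factor (-1.13 at 3 h and -1.28 at 8 h), at Ppara, the fatty acid sensor (-1.55 at 16 h), and at Nr3c1, the glucocorticoid receptor gene (-1.37 at 24 h). In macrophage nuclei 9 of these 10 genes had 46 peaks, with 0, 0, 3 and 4 called higher and 0, 3, 7 and 5 called lower. The lower calls are 0%, 6.52%, 15.2% and 10.9% of them, beside 0.139%, 4.96%, 17.5% and 8.28% of all peaks. The higher calls are 0%, 0%, 6.52% and 8.70%, beside 1.68%, 1.63%, 3.79% and 3.0%. A Creb1 peak, 47274 bp upstream of that gene of the cAMP response, was the lowest at 8, 16 and 24 h, at -0.85, -1.56 and -1.50.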

How the data were processed

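ATAC-seq was run on bead-captured nuclei with paired-end reads, per the labels' protocols. The submitters' processing notes name the mm10 build and, with no role given, HOMER, DESeq2, SAMtools and BWA 0.7.5a-r405. For each cell type the authors deposited a normalized signal for every peak in every mouse, with their log2 fold changes and adjusted p-values. Values are whole multiples of 1 step per library, with 100.0% of the values of every column whole within 0.01 of a step. A separate check that recovers whole reads passed for 30 of 32 hepatocyte and 5 of 32 macrophage columns. Coordinates are as deposited.

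The main test was limma 3.58.1 in R 4.3.3 on log2(value + 2), which understates changes of low peaks, with 8 group means per table, a mean of at least 10, and Benjamini-Hochberg adjustment over 46827 hepatocyte and 30170 macrophage peaks. The edgeR 4.0.16 and DESeq2 1.42.0 count tests used the 30 hepatocyte libraries, and edgeR called 10400, 12935, 12813 and 8878 peaks at 3, 8, 16 and 24 h. Overlaps of at least 1 bp came from bedtools 2.31.1. Sets of consecutive library numbers in the titles, 3 for hepatocyte and 2 for macrophage mice, served as a block alternative. The code was tested on simulated data.

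The gene, its peaks and the gene lists were chosen with earlier results of these data known. Peaks detailed are those with the highest mean, those shared, and those whose fasted and fed mice do not overlap at 1 time or more. Peaks of other genes are the 10 most correlated with the lead peak, that of largest fold change, and the nearest neighbours, of which some are not reported here. Sequence of the distal peaks was not used here.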

Additional observations from a re-analysis of the deposited data

Results flagged for a closer look

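Among the 160 groups of 4 mice (20 peaks, 8 groups each), 9 held a mouse far from the other 3, where chance gives about 1 in 20 groups. In hepatocyte nuclei the first fasted mouse at 3 h had 109 normalized reads at the peak 35440 bp downstream, where the others had 85.5 to 88.4. At the same peak the third fed mouse at 16 h had 92.4, where the others had 76.0 to 77.6. At the peak 30352 bp downstream the second fed mouse at 24 h had 46.1, where the others had 27.2 to 28.9. At the peak 8022 bp downstream the third fed mouse at 24 h had 24.5, where the others had 35.9 to 37.9. At the promoter peak 184 bp upstream the third fasted mouse at 16 h had 321, where the others had 274 to 280. That mouse was also the highest of its group at the peaks 8022 and 18120 bp away. At the peak 1391 bp upstream the fourth fasted mouse at 16 h had 16.6, where the others had 34.3 to 36.9.

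In macrophage nuclei the first fasted mouse at 8 h had 402 at the promoter peak, where the others had 379 to 382. The second fasted mouse at 16 h had 28.7 at the peak 15612 bp upstream, where the others had 20.1 to 21.3. The first fed mouse at 8 h had 10.6 at the peak 22940 bp upstream, where the others had 4.17 to 4.81. None of these mice was left out of the values reported.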

How the results depend on the processing

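Among called Ddit4 peaks no fasted against fed value changed direction. Of 1480 recomputed values 598 with 1 mouse left out and 754 under the other alternatives were counted as unchanged. For called peaks that means direction and call were kept. For uncalled peaks it means the value stayed within 1 SE of the reported one, whatever its sign. The cause of the other moves was not tested except where named. For the alternatives below the share of all peaks called in each fit is not given, so nothing is read from their counts. A mean of at least 50 leaves 4 hepatocyte and 4 macrophage Ddit4 peaks to test, which sets its counts. In hepatocyte nuclei these were 2, 2, 2 and 3 called in fasted against fed mice at 3, 8, 16 and 24 h, 1 at 24 against 16 h in fed mice, 0, 2 and 2 at the successive steps of fasted mice, and 2 and 3 with time in fed and fasted mice. In macrophage nuclei they were 3, 4 and 4 at 3, 8 and 24 h, 2 at 24 against 16 h in fed mice, 4 and 4 at the last steps of fasted mice, and 2 and 4 with time.

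With 2 mice a group (chosen after seeing the data), the first library-number set gave 4 hepatocyte peaks at 8 h, 0 at 16 h, 0 and 1 at the 8 against 3 h and 16 against 8 h steps of fasting and 2 with time in fed mice, and in macrophage nuclei 1 at the last fed step and 0 with time in fed mice. The later sets gave 4, 1 and 1 hepatocyte peaks at 8, 16 and 24 h, 0 at the last fed step, 0, 0 and 1 at the fasted steps and 0 and 3 with time in fed and fasted mice, and 8 macrophage peaks at the last fed step. In hepatocyte nuclei DESeq2 gave 5 at 24 h, and both count tests gave 0 at the last fed step and 0 at 8 against 3 h of fasting. The edgeR test gave 0 with time in fed mice. Quantile normalization gave 1 and 1 at the last 2 fed steps and 3 at 16 against 8 h of fasting, and a fit with no variance trend gave 0 at 8 against 3 h of fasting and 2 with time in fed mice.

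With 1 mouse left out, hepatocyte counts ran from 2 to 6 at 16 h, from 1 to 2 at the last fed step, from 0 to 2 at 8 against 3 h and from 2 to 8 at 16 against 8 h of fasting, and from 2 to 4 with time in fed mice. The low ends included leaving out the third fasted mouse at 16 h (2) and the first fed mouse at 24 h (2). In macrophage nuclei the last fed step ran from 3 to 7, with 7 without the first fed mouse at 24 h. The offsets, no filter, median centring and the library-number block, the one grouping of mice across groups that the titles allow, moved no count of Ddit4 peaks by over 1.5 times. Counts of the gene lists moved more. At 24 h in hepatocyte nuclei the mTORC1 list count of 45 was 20 in edgeR and 19 in DESeq2 and ran from 4 to 45 over the alternatives, and the inducer list count of 33 ran from 4 to 35. With 1 mouse left out the macrophage mTORC1 count of 7 at 24 h ran from 3 to 14 and that of 2 at 8 h from 0 to 2, and the macrophage inducer counts of 3 at 8 h and 9 at 24 h ran from 0 to 5 and from 5 to 10. The 3 shared peaks were the same number under each overlap rule, and promoter peaks numbered 0 within 100 bp and 3 within 3 kb in hepatocyte nuclei, 0 and 1 in macrophage nuclei. Count tests on macrophage reads and DESeq2's test over all times were not run. Low peaks, of a few reads in fed mice, limit the precision of folds.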
